A study of Mus musculus with 18 samples.

Results

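The genes described here are 10 members of the AP-1 and EGR families of transcription factors. They were chosen by name, as the rows of the RPKM table (reads on a gene, scaled by its length and by the mapped reads of the library) whose symbol was *Fos*, *Fosb*, *Fosl2*, *Jun*, *Junb*, *Jund*, *Atf3*, *Egr1*, *Egr2* or *Egr3*, and all 10 were found among the 20298 genes of the table. The rule uses names and no values, but the list was drawn up with earlier results of these data known. Their RNA was measured in 18 RNA-seq libraries, 3 in each of 6 groups. The cells were Ly6C+ CCR2+ monocytes of C57BL/6 wild-type (WT) mice or of mice with a knockin mutation in both *Stat5a* and *Stat5b* (DKI), in which STAT5 forms dimers but not tetramers. The cells were either untreated (day 0) or cultured in 20 ng/mL GM-CSF for 3 days or for 6 days, GM-CSF being the cytokine that drives monocytes into monocyte-derived dendritic cells. DKI cells carry the mutation from the germ line, so that an effect on the monocytes before isolation and an effect in culture cannot be told apart in the cultured groups alone. The mice's ages and the number of mice behind a library are not given in the sources used here.

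AP-1 is a dimer of leucine zipper proteins, in which a JUN protein (JUN, JUNB or JUND) pairs with another JUN, with a FOS protein or with an ATF protein such as ATF3. FOS proteins cannot bind DNA alone and need a JUN partner, and JUNB and JUND bind and activate less strongly than JUN at many sites. The EGR proteins are zinc finger factors that bind GC-rich sites. *Fos*, *Fosb*, *Jun*, *Junb*, *Atf3* and *Egr1* to *Egr3* are immediate early genes, which growth factors, cytokines and cell stress, including the handling of cells, switch on through MAP kinases within minutes and without new protein, while *Jund* is transcribed more steadily. In myeloid cells, EGR1 and EGR2 are known for their part in monocyte and macrophage differentiation.

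The estimated depth was 29.5 M to 43.2 M mapped reads per library (median 36.5 M), which is approximate because RPKM keeps no read totals. At the lowest depth, 3 reads amount to between 0.0105 RPKM for *Fosl2* and 0.061 RPKM for *Jund*, a limit that covers counting error only. The series text and the paper give bone marrow as the source and the sample labels give liver: *Alb*, which encodes the liver protein albumin, was listed at 0 in all 18 libraries, and the summed level of 8 hepatocyte markers stayed at or under 0.634 RPKM. On day 3, dendritic cell markers were lower in DKI (6 of 7 fitted markers called lower, sums of 4840 to 8880 RPKM in WT and 87.7 to 114 RPKM in DKI), and macrophage markers were higher (4 of 8 called higher, sums of 259 to 961 and 2910 to 7270 RPKM). On day 6 the counts were 6 of 8 lower and 3 of 8 higher. In a fit with a further term for the libraries' number (the replicate block), 5 dendritic cell markers were called lower and 7 macrophage markers higher on day 3, and 4 and 4 on day 6. In RNA from whole cultures, more cells of a type and more RNA per cell cannot be told apart, and the part of these marker differences in the results below was not tested. In marker genes, libraries of the culture days differed within groups. WT day 3 replicate 1 was high in the dendritic cell marker *Cd209a* (523 RPKM against 50.3 and 163) and the macrophage marker *Mrc1* (48.2 against 4.47 and 13.3). The gene lists were not fitted without it. They were fitted without each of 4 libraries that stood apart. DKI day 3 replicate 1 did so in the monocyte marker *Ly6c2* (775 RPKM, against 49.5 and 73.8 in the other DKI day 3 libraries) and in *Cd4* (53.2 against 0.977 and 0.498). DKI day 6 replicate 1 was high in the same genes (158 against 10.5 and 5.3, and 59.4 against 0.323 and 0.112) and in *S100a8*, an abundant gene of neutrophils and monocytes (1200 against 148 and 14.2). WT day 3 replicate 2 was high in *S100a8* (2190 against 81.9 and 153). WT day 6 replicate 1 was high in the summed macrophage markers (2520 RPKM against 541 and 406) and in the dendritic cell marker *Cd209a* (355 against 63.5 and 63.9). Without these libraries in turn, the dendritic cell and macrophage marker counts were 5 and 4, then 4 and 2 on day 3 (DKI replicate 1, WT replicate 2), and 3 and 2, then 3 and 1 on day 6 (DKI replicate 1, WT replicate 1), and changes in the calls of members and of the named list genes are given below. The summed level of 8 monocyte markers was also higher in DKI without overlap, with 1550 to 3870 RPKM in WT and 9000 to 21000 in DKI on day 3 and 2850 to 4190 and 10100 to 14200 on day 6, although 1 of the 8 (*Lyz2*) was called on each day, and it lost the call without any of these 4 libraries (adjusted p = 0.055 to 0.129). By the means *Lyz2* made up most of the day 3 sums, with 1890 RPKM in WT and 13000 in DKI. On day 3 the median log2 fold change of these markers was 1.3, and *Ccr2* alone lay below 0 (-0.41). No other marker list (neutrophil, B cell, T and NK cell, erythroid) had a called marker between the genotypes on any day with all libraries. Without WT day 3 replicate 2, the neutrophil marker *Prtn3* was called higher in DKI on day 3 (3.49, adjusted p = 0.0221). On day 0 the neutrophil markers summed to 1940 to 2830 RPKM in WT and 2000 to 2790 in DKI. On day 3 their sums were 89.5 to 2410 and 296 to 1490 RPKM. The part of this difference in the changes from day 0 to day 3 was not tested.

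*Fos* and *Jun* are the members that were called higher in DKI cells on day 6 in the fit without the replicate block. With the block *Atf3* was called higher too, and how far these calls hold is given below. The 250 bases before the start sites of *Fos* and *Jun* are shown so that their known promoter elements can be read. The sequences were taken from RefSeq on GRCm38.p6, the build also named mm10, at chr12:85473640-85473889 on the plus strand (*Fos*) and chr4:95052223-95052472 on the minus strand (*Jun*), and run 5′ to 3′ up to the base before the start. In *Fos*, capitals mark the core letters of the cyclic AMP response element (TGACGT) and, nearer the start, the box where the TATA-binding protein sits (TATAAA). In *Jun*, capitals mark TGACATCA, the variant AP-1 site through which JUN is known to drive its own gene.
Fos: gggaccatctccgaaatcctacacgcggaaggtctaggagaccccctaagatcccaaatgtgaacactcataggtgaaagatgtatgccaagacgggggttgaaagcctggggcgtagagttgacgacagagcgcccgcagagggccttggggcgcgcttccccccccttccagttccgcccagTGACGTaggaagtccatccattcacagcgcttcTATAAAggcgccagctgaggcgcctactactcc
Jun: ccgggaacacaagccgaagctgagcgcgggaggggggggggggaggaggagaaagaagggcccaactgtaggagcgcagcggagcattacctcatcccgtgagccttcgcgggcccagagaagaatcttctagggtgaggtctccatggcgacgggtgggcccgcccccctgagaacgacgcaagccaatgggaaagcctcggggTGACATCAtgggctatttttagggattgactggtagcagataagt

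Both strands were searched. TGACGT begins at -66 and TATAAA at -33 from the *Fos* start, and TGACATCA at -45 from the *Jun* start. Of 32851 mouse promoter windows of 250 bases, 6.47% hold TGACGT, 12.4% hold TATAAA and 2.93% hold TGACATCA, and these 3 motifs were added after the sequences had been read. The full cyclic AMP element TGACGTCA (1.55% of windows, which also count for TGACGT), the AP-1 site TGANTCA (6.75%), the EGR site GCGNGGGCG (4.7%), the STAT site TTCNNNGAA (7.02%) and the CArG box bound by serum response factor (1.47%) have no match in either of these windows. Of the 8 members with a promoter in the RefSeq table, 6 had a start site whose following bases were found in a GENCODE transcript of the gene, and *Junb*, *Jund* and 2 of the 5 start sites of *Egr2*, which had none, are left aside. Among the 6, the EGR site occurs in *Fosb* (from -50) and *Fosl2* (from -79), and 1 CArG box lies in the windows of all 3 remaining start sites of *Egr2*, which overlap. TGACGT, marked above in *Fos*, also occurs in *Atf3* (from -8) and in these 3 *Egr2* windows (from -56, -57 and -117). *Egr1* and *Egr3* have no entry.

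Before GM-CSF, the 10 genes were expressed in both genotypes, with means from 8.47 to 316 RPKM, and DKI cells did not differ detectably from WT. *Junb*, which encodes a JUN protein known to rise with cytokines, was the highest by its mean, at 316 ± 93.5 RPKM in WT and 314 ± 83.0 in DKI (SD, n = 3). *Atf3*, a stress-induced partner of JUN, followed at 291 ± 260 and 273 ± 261, then *Fos* at 216 ± 144 and 222 ± 140, and *Jun* at 210 ± 141 and 195 ± 128. *Egr3* was the lowest, at 13.5 ± 10.2 and 8.47 ± 3.83. By the means the order was the same in both genotypes apart from *Egr1* and *Fosb*, which changed places. Neighbours in the order overlapped in their libraries, except *Egr2* and *Egr3* in either genotype. None of the 10 was called between DKI and WT on day 0 (limma on log2(RPKM + 1), called where the fold change was over 1.5 and p after Benjamini-Hochberg adjustment was under 0.05), and neither was any of the 9179 genes fitted (0%). Of those genes, 44 had an unadjusted p under 0.05, none of them a member, and a fit blocked on the replicate number gave such a p for 352 genes and called 0. *Fosb* was the member among these 352 (log2 fold change 0.55, block SE 0.15, limma adjusted p = 0.995), and was higher in DKI in 3 of 3 pairs.

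The day 0 values moved by library number rather than by genotype. *Fos* had 54.3, 264 and 330 RPKM in WT replicates 1 to 3 and 62.2, 280 and 324 in the DKI libraries of the same numbers. *Jun* had 219, 64.9 and 346 in WT and 221, 55.6 and 308 in DKI. *Atf3* had 216, 77.0 and 580 in WT and 203, 54.7 and 562 in DKI. So replicate 1 was low for *Fos* and replicate 2 was low for *Jun* and *Atf3*, in both genotypes alike. Over the 30 DKI to WT ratios of same-numbered day 0 libraries, 27 lay within 1.5-fold of 1, and the extremes were 0.472 (*Egr3*, replicate 3) and 2.02 (*Fosb*, replicate 2). The median size of these log2 differences was 0.11 over the members and 0.08 over all genes.

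Within a day 0 group, in contrast, the members spread far more than most genes. The log2 range over the 3 libraries had a median of 1.96 for the members in WT and 1.63 in DKI, against 0.46 and 0.44 over all genes with a mean above 2 RPKM. All 10 members lay above that median in each genotype, and 7 of 10 lay above the 90th percentile of all genes (1.2 in WT and 1.17 in DKI). *Fosb*, a FOS protein known for sharp and brief induction, had the widest range, from 9.63 to 178 RPKM in WT and from 11.4 to 241 in DKI. These values are given as a description, with no test.

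**Figure D1:**
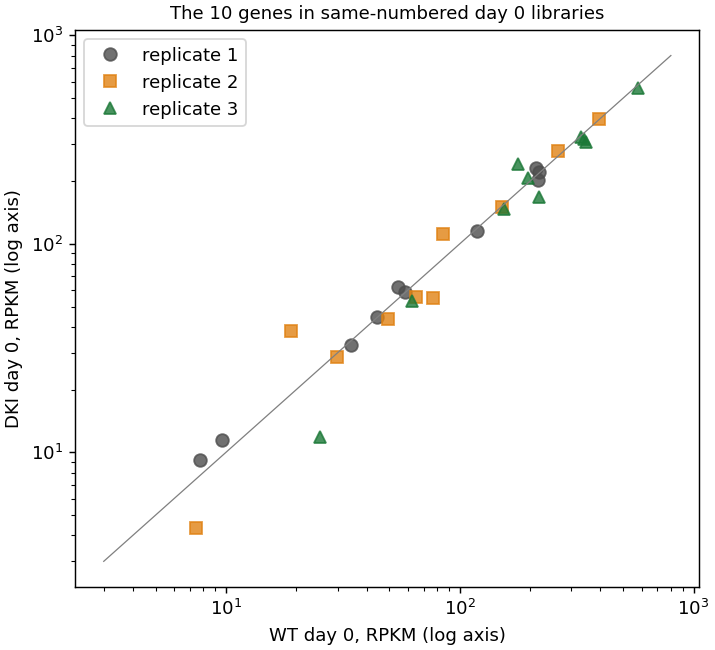
Day 0 RPKM of each of the 10 genes in a DKI library (vertical, log axis) against the WT library of the same replicate number (horizontal, log axis), with the line of equal values. The points follow the line over the whole range, with 27 of 30 within 1.5-fold of it, although the 3 replicates of a gene can lie far apart along it.

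From day 0 to day 3 in GM-CSF, most members fell in WT cells, and *Egr2* rose. No group was cultured without GM-CSF. Effects of GM-CSF, of time in culture and of cell handling before day 0 therefore cannot be told apart. Of the 10 genes, 6 were called lower (22.8% of all 9938 genes fitted were) and *Egr2* was called higher (20.3% of all genes). The median log2 fold change was -1.69 over the members and -0.05 over all genes. *Fos* fell by 4.45 on the log2 scale (SE 0.67, limma adjusted p = 0.00222), from the day 0 values above to 11.1, 5.60 and 4.83 RPKM. *Fosb* fell by 4.17 (SE 0.97, adjusted p = 0.012), to 1.78, 0.345 and 0.749 RPKM, and it entered the fit through its day 0 level only. Both genes were lower in every day 3 library than in any day 0 library.

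The JUN genes went apart in WT. *Jun* fell by 2.54 (SE 0.56, adjusted p = 0.00939), to 29.1, 30.7 and 25.8 RPKM. *Junb* fell by 1.36 (SE 0.27, adjusted p = 0.00641), from 212, 394 and 340 to 150, 109 and 102 RPKM. *Jund* did not fall: it had 118, 84.9 and 195 RPKM on day 0 and 224, 182 and 238 on day 3, with a log2 fold change of 0.77 (SE 0.30) that was not called (adjusted p = 0.074). Its groups overlap. It was higher in 3 of 3 same-numbered pairs, but for day 3 against day 0 the numbers did not pair the libraries.

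*Fosl2*, which encodes the FOS-related protein FRA-2, fell by 1.40 (SE 0.37, adjusted p = 0.0188), from 58.1, 152 and 154 to 42.8, 39.7 and 41.8 RPKM. It lost the call in 6 of 9 fits that left out a library or a replicate number (WT day 0 replicate 2 or 3, WT day 3 replicate 2 or 3, number 2 or 3, adjusted p = 0.0532 to 0.143). *Egr3* fell by 1.63 (SE 0.51, adjusted p = 0.0356) and lost the call in 5 of 9 (adjusted p = 0.0574 to 0.143, without WT day 0 replicate 3, WT day 3 replicate 2 or 3, number 2 or 3). *Egr2* was the member called in the other direction. It had 34.4, 29.8 and 62.3 RPKM on day 0 and 85.4, 90.0 and 120 on day 3, so that the groups do not overlap (log2 fold change 1.26, SE 0.29, adjusted p = 0.0115). *Atf3* (-1.75, SE 0.81, adjusted p = 0.114) and *Egr1* (-2.02, SE 0.90, adjusted p = 0.102) were not called, and *Egr1* passed without WT day 3 replicate 1 (-2.74), in which it had 52.6 RPKM against 5.03 and 22.2. *Fosb*, *Junb* and *Egr2* lost the call without number 2, *Junb* and *Jun* without number 3, and *Jun* without number 1. *Jund* passed without WT day 0 replicate 3 (1.08) and without number 3, and *Atf3* without WT day 0 replicate 2 (-2.48) and without number 2 (-2.95).

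In DKI cells, 3 of the 10 genes were called lower from day 0 to day 3 (21.1% of all 9922 genes) and 0 higher (13.1%). The members' median log2 fold change was -1.52, against -0.16 over all genes. *Fosb* fell by 5.31 (SE 0.99, adjusted p = 0.00931), to 0.626, 0.0269 and 0.119 RPKM, and *Fosl2* fell by 1.84 (SE 0.37, adjusted p = 0.0121), to 28.8, 28.7 and 32.2 RPKM. *Egr3* fell by 1.66 (SE 0.39, adjusted p = 0.0194), to 1.38, 1.27 and 3.08 RPKM, and lost the call in 6 of 9 fits with a library or number left out (adjusted p = 0.0508 to 0.0986). *Fosl2* lost it without number 2 or 3 and *Fosb* without number 2 (adjusted p = 0.0766). *Fosb* and *Egr3* entered this fit through their day 0 level only.

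*Fos* and *Jun*, which fell in WT, were not called in DKI. *Fos* had 186, 42.4 and 20.5 RPKM in the DKI day 3 libraries (log2 fold change -1.68, SE 0.93, adjusted p = 0.195), and *Jun* had 82.3, 66.4 and 38.4 (-1.38, SE 0.65, adjusted p = 0.138). *Junb* had 272, 81.2 and 92.1 RPKM (-1.27, SE 0.49, adjusted p = 0.0838), and it was called lower in a fit of all 18 libraries (adjusted p = 0.0146). Replicate 1, which stood apart in *Ly6c2*, was the highest of the 3 for all these genes. Without it, *Fos* (-2.55, adjusted p = 0.0496), *Junb* (-1.82, adjusted p = 0.00559) and *Egr1* (-3.25, adjusted p = 0.0304) were called lower, which brings the count to 6, with 19.3% of all genes called lower in that fit. Without number 1 in both groups, *Fos* (-3.31, adjusted p = 0.0072), *Junb* (-2.02, adjusted p = 0.00486) and *Egr1* (-3.56, adjusted p = 0.0456) were called lower and *Egr3* was not, a count of 5 with 18.5% of all genes. So the lack of a call for *Fos* in DKI rests on replicate 1. *Jun* was called lower without DKI day 0 replicate 2 (-2.11). *Jund* in DKI was lower on day 3 with groups that do not overlap, and was not called (-0.69, SE 0.31, adjusted p = 0.124).

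**Figure D2:**
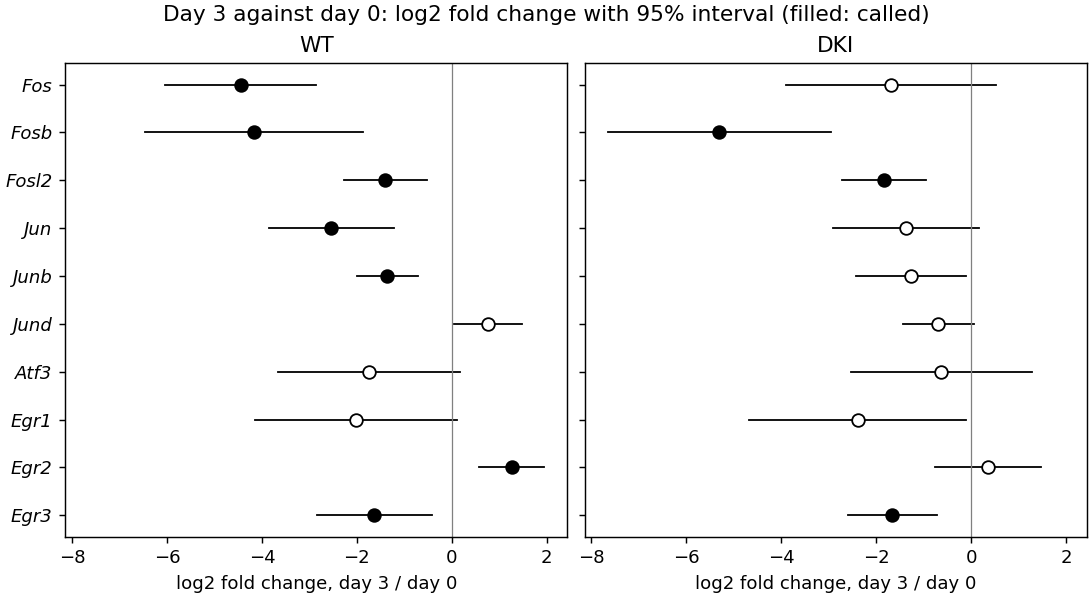
Log2 fold change from day 0 to day 3 of each gene in WT (left) and DKI (right), as points with limma's 95% intervals, with filled points for called genes. In WT, *Fos* at -4.45 and *Fosb* at -4.17 lie farthest left and *Egr2* and *Jund* lie right of 0, whereas in DKI *Jund* lies left of 0 and only *Fosb*, *Fosl2* and *Egr3* are filled.

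From day 3 to day 6 no member was called in either genotype, and nor was any gene (0% of 9613 genes in WT and 0% of 9540 in DKI), although 722 and 93 genes had an unadjusted limma p under 0.05. With the replicate block, 1221 and 471 genes had such a p and 0 were called. The largest member difference in WT was that of *Egr1* (-0.89, SE 0.87), and in DKI that of *Jun* (0.46, SE 0.30). The fall of *Egr2* in WT, from the day 3 values above to 62.5, 72.8 and 70.6 RPKM, had an unadjusted p of 0.0202 and an adjusted p of 0.632.

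Between the genotypes, *Fos* and *Jun* were higher and *Jund* was lower in the cultured DKI cells, with calls that differed by day. On day 3, 1 of 9 fitted members was called lower, *Jund* (4.21% of all 9740 genes were called lower), and 0 were called higher (3.21%). With the replicate block *Jund* lost its call and *Fos* gained one (2.7% of all genes were called higher with the block). On day 6, 2 of 9 were called higher, *Fos* and *Jun* (2.72% of all 9842 genes), and 0 lower (4.82%). With the block *Fos*, *Jun* and *Atf3* were called higher on day 6 (2.9% of all genes). The median log2 fold change over the members was -0.46 on day 3 and -0.03 on day 6, against -0.11 and -0.17 over all genes. With the libraries centred on their medians, which takes that shift out, the log2 fold changes on day 6 were 3.18 for *Fos*, 1.45 for *Jun* and -0.57 for *Jund*, and that of *Jund* on day 3 was -1.23, with the same calls. *Fosb* was under 2 RPKM on average in both genotypes on both days and was not fitted, and *Egr3* entered through WT only.

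*Fos* had 11.1, 5.60 and 4.83 RPKM in WT on day 3, against 186, 42.4 and 20.5 in DKI. On day 6 it had 8.82, 5.12 and 1.83 RPKM in WT and 51.9, 25.5 and 65.7 in DKI. The lowest DKI library was above the highest WT library on each day. On day 3 the log2 fold change was 2.85 (95% interval 0.98 to 4.71, SE 0.78, limma adjusted p = 0.0804), and with the replicate block it passed (SE 0.42, adjusted p = 0.0400). On day 6 it was 3.03 (95% interval 1.76 to 4.30, SE 0.53, adjusted p = 0.0288, and 0.0479 with the block). The DKI to WT ratios of the same-numbered pairs were 16.7, 7.57 and 4.24 on day 3 and 5.88, 4.98 and 35.9 on day 6, where the highest rests on the WT library with 1.83 RPKM. The day 6 call is close to the threshold: it was lost in 8 of 9 fits that left out a library or a replicate number (adjusted p = 0.0558 to 0.194, held without DKI day 6 replicate 2; without DKI day 6 replicate 1, which stood apart, 2.92 with adjusted p = 0.0682, and without WT day 6 replicate 1, 3.45 with 0.0581), and without the filter on low values (0.0626). On day 3, leaving out DKI replicate 1 gave a log2 fold change of 1.98 (adjusted p = 0.0545), and leaving out DKI replicate 3 gave a call for *Fos* (3.54, adjusted p = 0.0495).

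*Jun*, which lies at chr4:95049034-95052222 on the minus strand as 1 exon, moved the same way by less. On day 3 it had 29.1, 30.7 and 25.8 RPKM in WT and 82.3, 66.4 and 38.4 in DKI (log2 fold change 1.04, SE 0.29, adjusted p = 0.0827, and 0.0729 with the block), and it was called without DKI replicate 3 (1.35). On day 6 it had 29.8, 38.0 and 30.6 RPKM in WT and 90.4, 74.8 and 82.4 in DKI, and it was called higher (1.31, 95% interval 0.92 to 1.70, SE 0.16, adjusted p = 0.0143, and 0.0337 with the block). The groups do not overlap on either day, and the day 6 libraries of a genotype were within 1.27-fold of each other. The day 6 call was lost without WT replicate 1 or 3, without DKI replicate 3 and without number 1 or 3 (adjusted p = 0.0588 to 0.182), and in a fit of all 18 libraries (0.132). It held without DKI day 6 replicate 1 (1.24, adjusted p = 0.0397). *Junos*, on the opposite strand, overlaps *Jun*, and whether the counting used strand is not given in the sources used here, so reads of the pair cannot be told apart. The same holds for *Junb* and *Prdx2*, *Jund* and *Gm11175*, and *Atf3* and *Gm24748*.

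*Jund*, at chr8:70698949-70700616 on the plus strand, went the other way. On day 3 it had 224, 182 and 238 RPKM in WT and 64.5, 98.0 and 98.1 in DKI, and on day 6 it had 191, 156 and 153 in WT and 84.3, 132 and 91.6 in DKI. The DKI values were below all WT values on both days. On day 3 the log2 fold change was -1.31 (95% interval -1.86 to -0.76, SE 0.23, adjusted p = 0.0265, and 0.0552 with the block). It lost the call in 8 of 9 fits with a library or a number left out (adjusted p = 0.0515 to 0.173) and held it without DKI replicate 1 (-1.11, adjusted p = 0.0223), the library in which *Jund* was lowest. Without WT day 3 replicate 2 it was -1.42 (adjusted p = 0.069). On day 6 it was -0.72 (SE 0.22, adjusted p = 0.0941) and was not called, except without DKI replicate 2 (-0.91).

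*Atf3*, at chr1:191170296-191218039 on the minus strand, had 25.8, 122 and 77.8 RPKM in WT and 100, 187 and 89.8 in DKI on day 3, which overlap (log2 fold change 0.91, SE 0.59, adjusted p = 0.372). On day 6 it had 43.9, 96.6 and 98.6 in WT and 93.1, 233 and 187 in DKI. Number 1 was the lowest library of WT on both days, and each DKI library was above the WT library of its number. The day 6 log2 fold change of 1.08 had an SE of 0.45 without the block (adjusted p = 0.177) and of 0.15 with it (adjusted p = 0.0369), so the call rests on the pairing. The same-numbered ratios were 2.12, 2.41 and 1.89.

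The remaining AP-1 members were not called between the genotypes. *Junb*, at chr8:84974484-84978718 on the minus strand, had 150, 109 and 102 RPKM in WT and 272, 81.2 and 92.1 in DKI on day 3 (log2 fold change 0.10, 95% interval -1.04 to 1.23). On day 6 it had 141, 85.1 and 98.9 in WT and 107, 86.1 and 120 in DKI (-0.03, 95% interval -0.61 to 0.55). *Fosl2*, at chr5:32135801-32157842 on the plus strand, was lower in DKI on day 3 with groups that do not overlap, 42.8, 39.7 and 41.8 RPKM against 28.8, 28.7 and 32.2, but its log2 fold change of -0.46 (SE 0.13, adjusted p = 0.086) was below the 1.5-fold limit and missed the p limit. On day 6 *Fosl2* had 30.0, 35.9 and 40.1 RPKM against 24.8, 27.7 and 37.8 (-0.24, SE 0.21). *Fosb*, at chr7:19302696-19310051 on the minus strand, had at most 1.87 RPKM in any cultured library, and was lower in DKI in 3 of 3 pairs on day 3 and 2 of 3 on day 6.

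Among the EGR genes, none was called between the genotypes. *Egr2*, at chr10:67535475-67542188 on the plus strand, had 85.4, 90.0 and 120 RPKM in WT and 22.7, 74.8 and 62.0 in DKI on day 3. These groups do not overlap (log2 fold change -1.02, SE 0.44, adjusted p = 0.206), and the lowest value is that of DKI day 3 replicate 1, without which the log2 fold change was -0.51 (adjusted p = 0.18). On day 6 the values were 62.5, 72.8 and 70.6 in WT and 41.1, 65.8 and 70.0 in DKI (-0.25, SE 0.23, adjusted p = 0.516). *Egr1*, a factor known to promote monocyte differentiation, varied more within groups than between them, with 52.6, 5.03 and 22.2 RPKM in WT and 43.3, 2.60 and 14.0 in DKI on day 3. On day 6 *Egr1* had 18.7, 3.74 and 11.7 in WT and 12.8, 7.05 and 44.2 in DKI. Its log2 fold changes were -0.55 (SE 1.10, 95% interval -3.20 to 2.10) and 0.69 (SE 0.76, -1.13 to 2.51). With the block the day 3 interval narrowed to -0.96 to -0.14 (SE 0.15, limma adjusted p = 0.113), and *Egr1* was lower in DKI in 3 of 3 pairs, while on day 6 it was -0.55 to 1.94 and 2 of 3 pairs were higher. *Egr3*, at chr14:70077203-70082614 on the plus strand, had 5.55, 1.71 and 2.70 RPKM in WT and 1.38, 1.27 and 3.08 in DKI on day 3, and at most 3.51 RPKM on day 6.

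Counted by groups that do not overlap, 2 members were higher in DKI on day 3 (*Fos* and *Jun*) and 3 were lower (*Fosl2*, *Jund* and *Egr2*). Over all genes fitted, 13.4% were higher and 22.9% were lower in this sense. On day 6, 2 members were higher (*Fos* and *Jun*) and 1 was lower (*Jund*), with 10.6% and 26.6% over all genes. The names of replicate 1 of days 3 and 6 carry an earlier year than the other libraries. Without that number, the log2 fold changes were 2.30 for *Fos*, 0.82 for *Jun* and -1.08 for *Jund* on day 3, and 3.34, 1.18 and -0.49 on day 6, in the same directions, with none called.

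**Figure D3:**
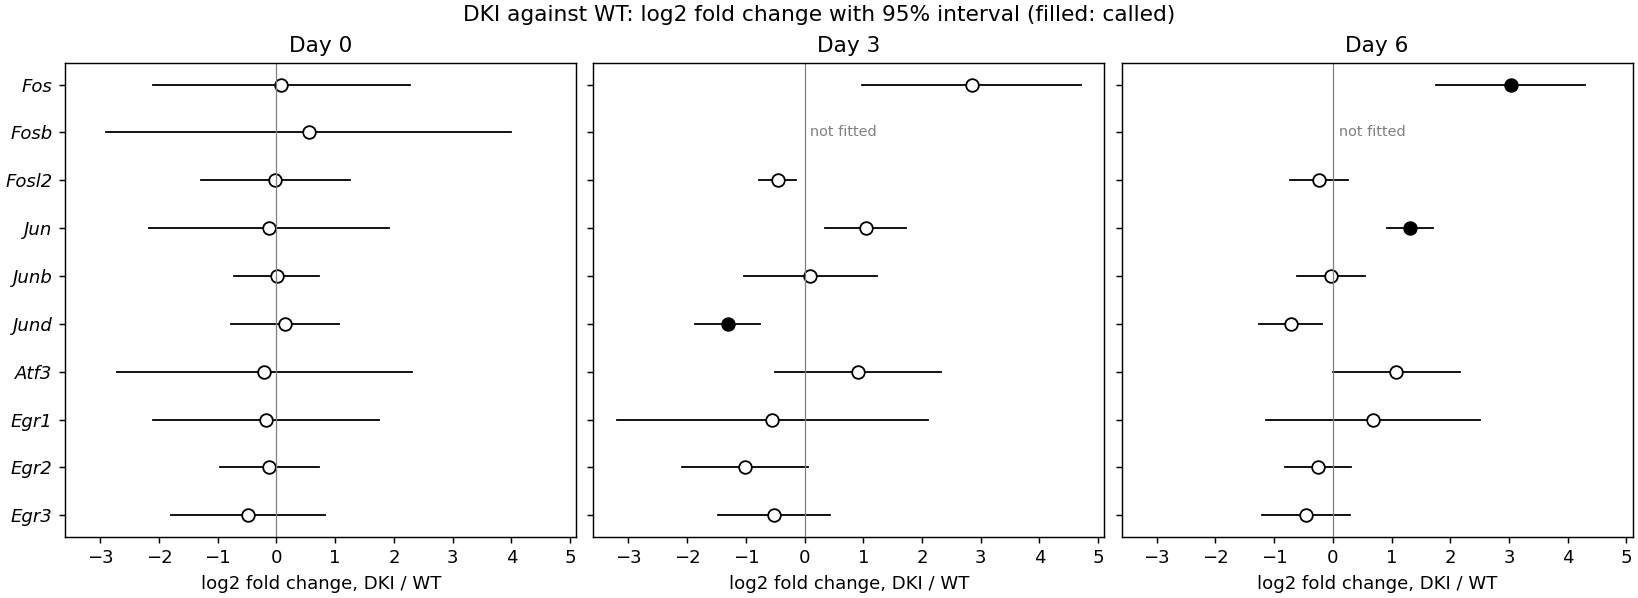
Log2 fold change of DKI over WT for each gene on days 0, 3 and 6, as points with limma's 95% intervals, with filled points for called genes and *Fosb* not fitted on days 3 and 6. All day 0 intervals span 0, *Fos* and *Jun* lie right of 0 on days 3 and 6 (2.85 and 1.04, then 3.03 and 1.31) and *Jund* lies left of it (-1.31, then -0.72).

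**Figure D4:**
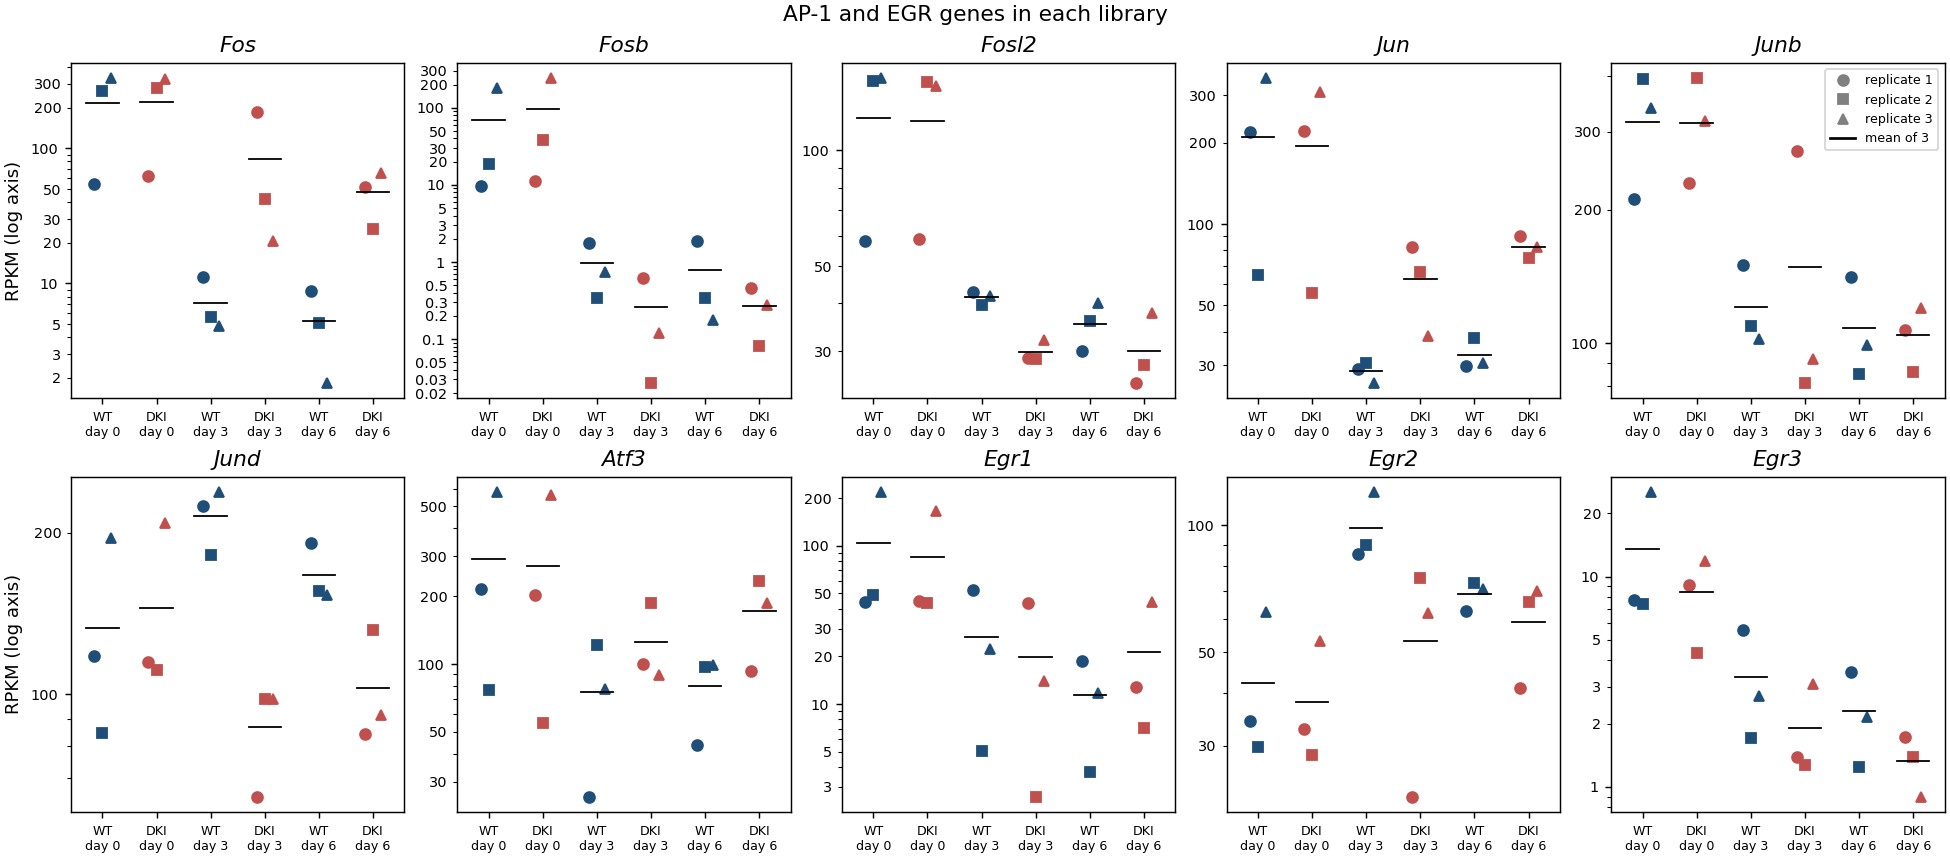
RPKM (log axis, with a different range in each panel) of each gene in the 18 libraries, with blue points for WT and red for DKI, a symbol for each replicate number and a black line at the mean of 3. The mean of *Fos* goes from 216 at day 0 to 7.19 at day 3 in WT and from 222 to 83.0 in DKI, where the day 3 points run from 20.5 to 186, and the DKI points of *Jund* lie under the WT points on days 3 and 6.

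An interaction term tested whether the genotype effect changed from day to day. Between day 0 and day 3, 0 of 10 members were called, against 2.91% of all 10212 genes. *Jund* had an interaction of -1.46 (SE 0.46, unadjusted p = 0.0096, adjusted p = 0.139, and 0.0536 with the block), and *Fos* had 2.76 (SE 1.28, adjusted p = 0.328). Between day 0 and day 6, a comparison added after the data were seen, 0 of 10 were called, against 2.8% of all 10353 genes, with 2.95 for *Fos* (SE 1.12, unadjusted p = 0.0242, adjusted p = 0.202) and 1.43 for *Jun* (SE 0.91, adjusted p = 0.475). Between day 3 and day 6, 0 of 9 members and 0% of 9985 genes were called (89 genes at an unadjusted limma p under 0.05). These fits leave out the pairing of same-numbered WT and DKI libraries within a day, which holds the wide day 0 spread. A fit with a block on the number within each day, also added after the data were seen, called 4 of 10 members between day 0 and day 3 (10.2% of all genes): *Fos* (2.76, SE 0.49, adjusted p = 0.0222), *Jun* (1.16, SE 0.25, adjusted p = 0.0369), *Jund* (-1.46, SE 0.26, adjusted p = 0.0214) and *Fosb* (-1.15, SE 0.22, adjusted p = 0.0291), whose day 3 level was under 2 RPKM. *Fosb* entered this fit through its day 0 level only and was not fitted between the genotypes on day 3. Between day 0 and day 6 it called 3 of 10 (13.5% of all genes), *Fos* (2.95, SE 0.62, adjusted p = 0.0321), *Jun* (1.43, SE 0.18, adjusted p = 0.00902) and *Atf3* (1.29, SE 0.17, adjusted p = 0.0103), and between day 3 and day 6 it called 0 (0% of all genes, with 175 at an unadjusted limma p under 0.05). Whether the genotype effect is shown to change from day 0 therefore depends on whether the pairing within a day is in the fit.

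As RPKM is per length, the members of a family can be set side by side in a library. The summed JUN level (*Jun*, *Junb* and *Jund*) was 363 ± 40.4 RPKM in WT and 298 ± 105 in DKI on day 3. On day 6 it was 308 ± 47.1 and 290 ± 6.35 (SD, n = 3), and the sums overlap. On day 3 they overlap through DKI replicate 1 only, with a sum of 419 RPKM. The other DKI sums, 246 and 229 RPKM, lay below the WT range of 322 to 402. The makeup of the sums differed on both days. *Jund* made up 59.1 ± 5.28% of the sum in WT and 32.7 ± 15.1% in DKI on day 3, and 54.3 ± 1.51% and 35.4 ± 8.39% on day 6. Without DKI day 3 replicate 1, which had 15.4%, the mean *Jund* share in DKI was 41.4% on day 3. *Jun* made up 7.94 ± 1.38% and 21.2 ± 5.28% on day 3, and 10.9 ± 2.70% and 28.5 ± 3.27% on day 6. On day 0 the shares were close, with *Jund* at 19.7 ± 3.59% in WT and 21.7 ± 2.83% in DKI. On both culture days the lowest *Jun* share in DKI (16.8% and 25.6%) was above the highest in WT (9.53% and 13.6%), and the highest *Jund* share in DKI (42.9% and 45.0%) was below the lowest in WT (55.6% and 52.8%).

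The summed FOS level (*Fos*, *Fosb*, *Fosl1* and *Fosl2*) was 49.7 ± 5.32 RPKM in WT and 113 ± 89.0 in DKI on day 3, and 41.6 ± 0.754 and 78.2 ± 25.3 on day 6. The DKI mean of day 3 rests on replicate 1, with a sum of 215 RPKM: the other sums were 71.5 and 52.9 (mean 62.2), and the lower of them overlaps with the WT libraries, which reached 55.8. *Fosl2* made up most of it in WT, with 83.8 ± 6.16% on day 3 and 85.0 ± 10.7% on day 6, against 38.2 ± 23.8% and 40.1 ± 10.4% in DKI. *Fos* made up 14.1 ± 5.18% and 12.7 ± 8.66% in WT, against 61.4 ± 23.9% and 59.4 ± 10.3% in DKI. Without DKI day 3 replicate 1 the mean *Fos* share in DKI was 49.0% on day 3, and the lowest library (38.7%) was above the highest in WT (20.0%). Without WT day 6 replicate 1 the mean *Fos* share in WT was 8.3% on day 6. On day 0, *Fos* was at 50.9 ± 8.59% in WT and 49.9 ± 7.90% in DKI. These shares are a description of RNA levels, with no test.

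**Figure D5:**
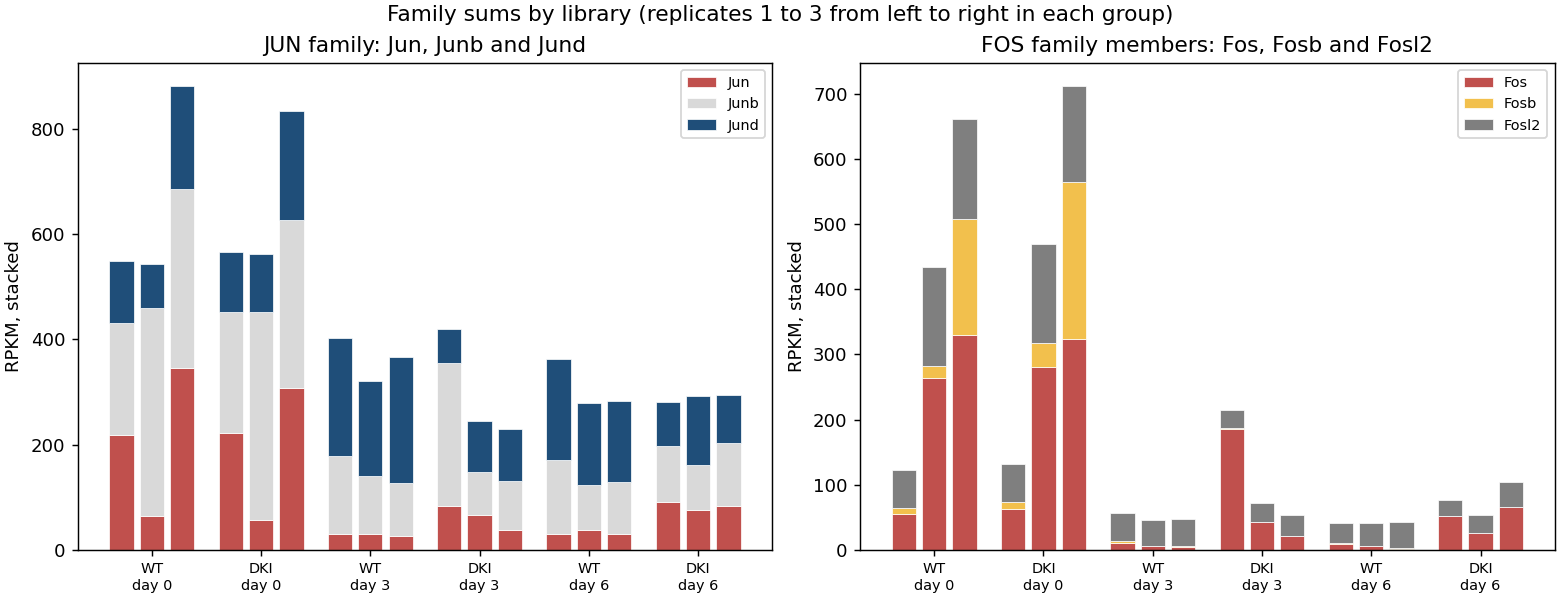
Stacked RPKM of *Jun*, *Junb* and *Jund* (left) and of *Fos*, *Fosb* and *Fosl2* (right) in each library, 1 bar per library with replicates 1 to 3 from left to right. On days 3 and 6 *Jund* (blue) fills most of each WT bar on the left, and *Fosl2* (grey) most of each WT bar on the right, while *Jun* and *Fos* (red) take larger parts of the DKI bars.

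By their means the leading gene of the 10 was *Jund* in WT on both culture days (214 ± 29.4 and 167 ± 21.3 RPKM), with all 3 libraries above those of the next gene, *Junb* (120 ± 25.8 and 108 ± 29.2). In DKI the leading genes were *Junb* on day 3 (148 ± 107) and *Atf3* on day 6 (171 ± 71.2), and these overlapped with the genes next in order. *Junb* led on day 3 through replicate 1: without it the means were 139 for *Atf3*, 98.0 for *Jund* and 86.7 for *Junb*. *Fosb* was the lowest in all 4 cultured groups, with means of 0.958, 0.257, 0.797 and 0.272 RPKM in WT and DKI on day 3 and in WT and DKI on day 6. These low means rest on single libraries, with 0.073 in DKI on day 3 and 0.26 and 0.178 in WT and DKI on day 6 without replicate 1. In WT on day 3, replicate 1 had 1.78 RPKM against 0.345 and 0.749 in the other libraries.

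The other subunits of AP-1 and the MAF proteins, which are related leucine zipper factors, were mostly not called between the genotypes. Of 16 such genes, 15 were fitted on each culture day, and on each day 1 was called higher and 1 lower. *Maf*, a factor known in macrophages, had 5.68, 1.68 and 3.28 RPKM in WT and 408, 105 and 102 in DKI on day 3 (log2 fold change 5.28, SE 0.61, limma adjusted p = 0.00966), and 4.54 on day 6 (SE 0.73, adjusted p = 0.0252, and 0.0785 without WT day 6 replicate 1). *Maff*, a small MAF protein without an activation domain, was called lower, with 20.5, 30.8 and 20.5 RPKM in WT and 5.20, 6.07 and 4.25 in DKI on day 3 (-2.00, SE 0.21, adjusted p = 0.00692), and again on day 6 (-1.73, SE 0.29, adjusted p = 0.0273, 0.0634 without DKI day 6 replicate 1 and 0.101 without WT day 6 replicate 1). Without DKI day 3 replicate 1, *Batf2* was also called lower on day 3 (-0.98, adjusted p = 0.0175). With the block, *Batf3*, a dendritic cell factor, was also called lower on day 6. The list's median log2 fold change was 0.17 on day 3 and 0.26 on day 6.

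The kinases and cofactors upstream showed few calls. Of 11 fitted MAP kinase genes 0 were called on either day (medians of -0.16 and -0.20). Of 8 fitted EGR partners and serum response cofactors, *Mkl1*, which encodes an actin-regulated cofactor of serum response factor, was called lower on day 3 (-1.05, SE 0.20, adjusted p = 0.031, and 0.0657 with the block) and on day 6 (-1.29, SE 0.20, adjusted p = 0.0236). It lost both calls without a library that stood apart (adjusted p = 0.0508 without DKI day 3 replicate 1, 0.0997 without WT day 3 replicate 2 0.0536 without DKI day 6 replicate 1 and 0.0837 without WT day 6 replicate 1). Of 7 fitted heat shock genes 0 were called on either day (medians of -0.18 and -0.37).

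Few of the other immediate early genes were called between the genotypes. Of 20, 19 were fitted on day 3 and only *Arc* was called, lower in DKI (-2.53, SE 0.51, adjusted p = 0.0388), with 5.71, 17.0 and 3.39 RPKM in WT and 0.574, 0.548 and 0.137 in DKI. *Arc* entered the fits of both days through its WT level only. On day 6, 3 of 18 were called lower, *Arc* (-2.64, SE 0.28, adjusted p = 0.00919), *Csrnp1* (-1.17, SE 0.26, adjusted p = 0.0456) and *Gadd45b* (-0.93, SE 0.20, adjusted p = 0.0433, and 0.0551 with the block), and *Rhob*, which encodes a small GTPase, was called higher (2.13, SE 0.44, adjusted p = 0.041). With the block, *Rhob* was called higher on day 3 too, and on day 6 the calls were 2 higher (*Ier3* and *Rhob*) and 4 lower (*Arc*, *Csrnp1*, *Socs3* and *Zfp36l1*). Genes without a call went either way on both days, such as *Ier3* (log2 fold changes of 1.37 and 1.07) and *Klf10* (0.69 and 1.55) above 0, and *Socs3* (-1.05 and -1.28) and *Ppp1r15a* (-0.52 and -0.97) below 0. The calls moved with the libraries that stood apart. Without DKI day 3 replicate 1, *Btg2*, *Ppp1r15a*, *Csrnp1* and *Socs3* were called lower on day 3 (-0.93 to -1.69) and *Arc* was not (adjusted p = 0.0623). Without DKI day 6 replicate 1, *Arc* was called lower and *Klf4* higher (1.85) on day 6, and *Csrnp1*, *Gadd45b* and *Rhob* were not called (adjusted p = 0.0821, 0.0811 and 0.0515). Without WT day 6 replicate 1, *Arc* was the one gene called on day 6. The medians over the list with all libraries were -0.06 and -0.32. From day 0 to day 3, however, 11 of 20 such genes were called lower and 3 higher in WT, and 10 of 19 lower and 1 higher in DKI, with medians of -1.23 and -1.33. Over all genes, 22.8% were called lower and 20.3% higher in WT, and 21.1% and 13.1% in DKI. With the block the list counts were 9 lower and 3 higher in WT, and 11 and 1 in DKI.

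Of 13 fitted genes with textbook AP-1 sites, the same 3 were called higher in DKI on both days and 0 were called lower, with medians of 0.95 and 0.87. *Ccl2*, a monocyte chemokine, had 27.9, 45.3 and 11.1 RPKM in WT and 1100, 1710 and 529 in DKI on day 3 (5.30, SE 0.61, adjusted p = 0.00953), and a log2 fold change of 4.66 on day 6 (SE 0.40, adjusted p = 0.00673). *Mmp13*, a collagenase, had 5.11 on day 3 (SE 1.08, adjusted p = 0.042, 0.053 with the block, 0.0772 without DKI replicate 1 and 0.126 without WT replicate 2) and 4.46 on day 6 (SE 0.41, adjusted p = 0.00746). *Hmox1*, which encodes the heme-degrading enzyme, had 2.02 (SE 0.17, adjusted p = 0.00477) and 1.60 (SE 0.20, adjusted p = 0.0143, and 0.063 without WT day 6 replicate 1). With the block, *Tnf* was also called lower on day 6 (-0.97). Whether AP-1 binds these genes in these cells was not measured in these libraries.

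Across the 18 libraries, the genes with the profile most like that of a member, by Pearson's r of log2(RPKM + 1) among 10417 genes, were *Zfp36* and *Sik1* for *Junb* (r = 0.98 each), and *Cavin2* and *Gucy1b1* for *Fosb* (0.98 each). For *Fos* they were *Nr3c1* (0.95) and *Iqgap2* (0.94), for *Jun* *Fam160a2* (0.95) and *Otud1* (0.93), and for *Jund* *Agap2* and *Jmjd7* (0.89 each). For *Egr1* they were *Nfix* (0.91) and *Ier2* (0.89), for *Egr2* *Bcl2* and *Lyrm4* (0.93 each), for *Egr3* *Phf7* (0.96) and *Hnrnpul1* (0.95), and for *Fosl2* *Igkv5-48* and *Mest* (0.97 each). *Atf3* was the one member whose nearest genes included another member, *Jun* (0.82, as for *St7l*). Between members, r was highest for *Fosb* and *Fosl2* (0.92) and lowest for *Fos* and *Egr2* and for *Junb* and *Egr2* (-0.69 each), and it was -0.42 for *Fos* and *Jund*. The points share groups, library depth and replicate numbers, so these correlations are a description of the 18 libraries.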

How the data were processed

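RNA-seq libraries of WT and DKI cells on days 0, 3 and 6 were compared (6 groups of 3). According to the study's methods and the submitters' processing notes, the authors aligned single-end reads to mm10 with Subread, counted them on RefSeq genes with featureCounts and deposited RPKM values in 1 table with 1 column per library. Versions and the use of strand are not given in the sources used here. RPKM does not hold counts, so the authors' count test (edgeR) could not be repeated. Of the 20298 gene identifiers, 20082 matched RefSeq. No libraries held identical values. Depth was estimated per library from the smallest nonzero values of receptor genes that have 1 exon, taken as 1 read (clusters of 4 to 13 genes).

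Values were analysed as log2(RPKM + 1), a scale that understates changes of low genes, with limma 3.58.1 in R 4.3.3 (eBayes with a trend) on the libraries of the groups compared. Genes with a mean over 2 RPKM in at least 1 compared group were fitted. Genes were called at a Benjamini-Hochberg adjusted p under 0.05 over all fitted genes and a fold change over 1.5, the limits of the study's methods. Interactions used the 12 libraries of both days. Whether the 3 samples of a group come from separate mice is not stated beyond 3 independent experiments, so p-values measure the spread between these samples. The fit without the replicate number as a block was the main one. Same-numbered libraries deviated together over 0.1 in every pair for DKI against WT (lowest correlation 0.69 on day 0, 0.16 on day 3 and 0.34 on day 6) and for day 6 against day 3 (0.12 in WT and 0.32 in DKI), and the numbers come from the labels. For day 3 against day 0 they did not (lowest -0.21 in WT and -0.01 in DKI). Alternatives were the pseudocount, the filter, median centring, quantile normalization, all 18 libraries in 1 fit, the block, and each library or number left out. The gene lists without each of 4 libraries that stood apart, the family sums with a library left out, and the interaction with a block within each day were added after the data were seen. The steps were tested on simulated data.

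The members, the gene lists and the tests were chosen with earlier results of these data known. Named are all 10 members, up to 3 called genes per other list and day by size of change, and the 2 genes most alike to each member. *Batf3*, *Gadd45b*, *Ier3*, *Socs3*, *Zfp36l1*, *Tnf*, *Klf4*, *Klf10*, *Btg2*, *Ppp1r15a*, *Batf2*, *S100a8*, *Cd209a*, *Lyz2*, *Ccr2*, *Mrc1*, *Prtn3*, *Prdx2*, *Junos*, *Gm11175*, *Gm24748*, *Alb*, *Ly6c2* and *Cd4* were named after their values or positions were seen. The values of 1 gene of the other AP-1 subunits, which is counted in that list, are not reported here. Gene positions are those of GENCODE vM21 (GRCm38), and promoters those of RefSeq on GRCm38.p6. Figures were made with matplotlib 3.10.9 in Python 3.11.15.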

Additional observations from a re-analysis of the deposited data

Results flagged for a closer look

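For *Fosb* and *Atf3* the DKI to WT difference pointed one way in all 3 same-numbered pairs of day 0 and the other way in all 3 pairs of a culture day. For *Fosb* the difference of the log2 fold changes, day 3 minus day 0, was -1.15 (SE 1.56, unadjusted p = 0.476, limma adjusted p = 0.793). For *Atf3* it was 1.12 for day 3 minus day 0 (SE 1.28, unadjusted p = 0.4, adjusted p = 0.748) and 1.29 for day 6 minus day 0 (SE 1.21, unadjusted p = 0.312, adjusted p = 0.645). None of these 3 differences passed the test of the interaction without a block. In the fit with a block on the replicate number within each day, the genotype effect of day 3 differed from that of day 0 for *Fos* (2.76, limma adjusted p = 0.0222), *Jun* (1.16, adjusted p = 0.0369), *Jund* (-1.46, adjusted p = 0.0214) and *Fosb* (-1.15, adjusted p = 0.0291), and that of day 6 for *Fos* (2.95, adjusted p = 0.0321), *Jun* (1.43, adjusted p = 0.00902) and *Atf3* (1.29, adjusted p = 0.0103). *Fosb* entered these fits through its day 0 level only, with day 3 means of 0.958 RPKM in WT and 0.257 in DKI.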

How the results depend on the processing

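Over 94 member results, 657 of 687 values with all libraries kept and 837 of 1018 values with a library or a replicate number left out stayed in the same direction and on the same side of the threshold. The largest log2 fold change that changed direction under any of these alternatives was 1.15 in size. The numbers of members called moved with the setting. On day 3 (1 called between the genotypes) it was 2 in a fit of all 18 libraries and 0 to 2 with a library or number left out. On day 6 (2 called) it was 1 in a fit of all 18 libraries, 1 without the filter on low values, 3 with the replicate block and 0 to 3 with a library or number left out. For day 3 against day 0 it was 3 to 8 in WT (7 called) and 0 to 6 in DKI (3 called) with a library or number left out. With all libraries kept, *Egr3* in WT lost its call without the filter on low values (adjusted p = 0.0742), and a fit of all 18 libraries added *Jund* in WT (0.0473) and *Junb* in DKI (-1.27, 0.0146). For that comparison the numbers do not pair the libraries, and the block gave 8 in WT, where *Jund* was added (adjusted p = 0.0484), and 3 in DKI. For the genotype effect between days (0 called), the block within each day gave 4 for day 3 minus day 0 and 3 for day 6 minus day 0. The block changed the call of no member other than those given with the results.

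Over all genes, the calls on day 3 (723) ranged from 358 to 1359 with all libraries kept and from 0 to 715 with a library or number left out, and those on day 6 (742) from 187 to 1573 and from 0 to 984. For day 3 against day 0 they ranged from 3482 to 4431 and from 2635 to 4286 in WT (4283), and from 2801 to 4036 and from 705 to 3412 in DKI (3394). On day 0 a fit of all 18 libraries called 6 genes, and for day 6 against day 3 in WT it called 16.

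With all libraries kept, 13 differences near 0 changed direction. Under median centring and quantile normalization, DKI against WT for *Junb* was -0.01 and -0.01 on day 0 and 0.11 and 0.08 on day 6, and *Fosl2* in DKI, day 6 against day 3, was 0.06 and 0.08. The difference in genotype effect of *Egr3*, day 3 minus day 0, was 0.10 with a pseudocount of 4 and 0.05 with median centring, and day 6 minus day 0 it was -0.14 with a pseudocount of 0.1. Day 6 minus day 0, median centring and quantile normalization gave 0.11 and 0.09 for *Junb* and 0.01 and 0.00 for *Egr2*.

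With a library or number left out, the ranges that crossed 0 for DKI against WT on day 0 were -1.01 to 0.66 for *Atf3*, -0.81 to 0.56 for *Egr1*, -0.38 to 0.19 for *Egr2*, -0.84 to 0.05 for *Egr3*, -0.72 to 0.84 for *Fos*, -0.61 to 1.75 for *Fosb*, -0.48 to 0.43 for *Fosl2*, -0.81 to 0.61 for *Jun*, -0.25 to 0.21 for *Junb* and -0.14 to 0.47 for *Jund*. On day 3 they were -1.42 to 0.39 for *Egr1* and -0.45 to 0.42 for *Junb*, and on day 6 -0.01 to 1.30 and -0.19 to 0.17. In DKI, day 3 against day 0, they were -1.82 to 0.38 for *Atf3* and -0.14 to 0.87 for *Egr2*. In DKI, day 6 against day 3, they were -0.59 to 1.38 for *Egr1*, -0.24 to 0.60 for *Egr2*, -1.27 to 0.57 for *Fos*, -0.18 to 0.11 for *Fosl2* and -0.62 to 0.26 for *Junb*, and in WT -0.37 to 0.72 for *Atf3*, -0.63 to 0.00 for *Egr3* and -0.37 to 0.01 for *Junb*. For the genotype effect, day 3 minus day 0, they were -1.24 to 0.58 for *Egr1*, -0.63 to 0.78 for *Egr3*, -2.36 to 0.00 for *Fosb*, -0.88 to 0.02 for *Fosl2* and -0.46 to 0.41 for *Junb*. Day 6 minus day 0 they were -0.44 to 0.13 for *Egr2*, -0.51 to 0.51 for *Egr3*, -2.14 to 0.21 for *Fosb*, -0.66 to 0.24 for *Fosl2* and -0.25 to 0.22 for *Junb*. Day 6 minus day 3 they were -0.31 to 0.79 for *Atf3*, -0.29 to 0.53 for *Egr3*, -1.06 to 1.06 for *Fos*, -0.04 to 0.50 for *Jun* and -0.45 to 0.43 for *Junb*. The cause of these changes was not tested. The direction of *Fos*, *Jun* and *Jund* on days 3 and 6 was the same under every alternative run. RPKM holds no read totals, so counting error could not be modelled.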
